A study of Mus musculus with 16 samples.

Results

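This account concerns the RNA-seq comparison of wild type (WT) and Nrf2-/- mIMCD3 cells that had both been given SFN and then 1 h of hyperosmotic stress. It rests on 4 of the 16 libraries of the series, chosen by their labels, and on the 16364 genes of 55367 listed that passed edgeR's filter on low counts. mIMCD3 is an established mouse epithelial line derived from the collecting duct of the inner medulla. SFN (sulforaphane) is an electrophile from plants that activates Nrf2. All 4 cultures received 10 µM SFN for 5 h, after which the medium was replaced for 1 h with a hypertonic one of 600 mOsm. The groups were WT cells (2 libraries) and Nrf2-/- cells (2 libraries), described in the study as biological replicates. The Nrf2-/- cells had been made with lentiviral Cas9 and a lentiviral guide RNA and selected with blasticidin and puromycin, and the sources used here do not say whether they were 1 clone or whether the WT cells carried Cas9. Differences due to Nrf2 and other differences between the 2 lines cannot be told apart here, because 1 Nrf2-/- line was compared and its cells without SFN were not analysed. For reference, 3 further pairs of libraries are cited, namely WT cells given DMSO, the solvent, before the same 1 h of stress, and WT and Nrf2-/- cells given SFN and kept isosmotic. Isosmotic WT cells with DMSO served only to define the lists of genes that SFN or stress changed in WT cells.

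Nrf2, encoded by Nfe2l2, is a transcription factor that the adaptor Keap1 delivers to a ubiquitin ligase in unstressed cells. Electrophiles such as SFN modify cysteines of Keap1, and Nrf2 then accumulates, pairs with a small Maf protein and binds antioxidant response elements (AREs) near genes for glutathione synthesis, thioredoxin recycling, drug conjugation, heme breakdown and NADPH supply. Cells of the inner medulla live in a hyperosmotic environment, and their best known response to it runs through NFAT5, which raises transporters and enzymes for organic osmolytes.

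Total counts were 36742603 and 38553725 in the WT libraries and 35717514 and 36544765 in the Nrf2-/- libraries, and no gene encoded by mitochondrial DNA was counted. The labelled cell type was only partly visible in the markers. Krt8, an epithelial keratin, stood at 971 and 957 CPM (read counts scaled to a common library size with TMM factors) in WT and 952 and 875 CPM in Nrf2-/- libraries, and Pax8, a transcription factor of renal epithelium, at 105 and 104 CPM against 57.7 and 49.9 CPM. Aqp2, the vasopressin-regulated water channel that defines principal cells, held no read in either WT library and 0.0567 and 0.0572 CPM in the Nrf2-/- libraries. Among markers of other cells, the 17 of fibroblasts and mesenchyme summed to 1142 and 1160 CPM in WT and 363 and 522 CPM in Nrf2-/- libraries, mostly Vim, with 2 at 0 in all 4, and their part in the results was not tested. The 9 immune cell markers summed to 16 and 16.1 CPM in WT and 15.6 and 15.2 CPM in Nrf2-/- libraries, mostly Cd14, with 2 markers at 0 in all 4. The 8 endothelial markers summed to 2.46, 2.35, 1.79 and 1.77 CPM in the same order, and the 6 intercalated cell markers to 0.524, 0.325, 0.737 and 1.23 CPM, with 3 at 0 in all 4. The 10 proximal tubule markers summed to 14.2 and 12.5 CPM in WT and 10.5 and 11.4 CPM in Nrf2-/- libraries, most of it Lrp2 in WT.

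The 2 Nrf2-/- libraries differed from each other far more than the 2 WT libraries did, so both values are given for the genes described in full. The biological coefficient of variation, a measure of relative spread between replicates, was 0.305 for the Nrf2-/- pair and 0.0384 for the WT pair, against 0.0460 to 0.120 for the 6 other pairs of the series. Among genes with a mean of at least 50 counts, 1027 of 11675 (8.80%) lay at least 2-fold apart between the Nrf2-/- libraries, against 10 of 12103 (0.0826%) between the WT libraries. The difference followed exon length. With genes put in 4 equal classes of exon length, the median log2 ratio of replicate 1 over replicate 2 was 0.43 in the shortest class and -0.31 in the longest, against -0.01 and -0.00234 in the WT pair. Smaller trends with length were present in other pairs of the series, at -0.14 and 0.13 in isosmotic WT cells with DMSO and 0.08 and -0.13 in isosmotic WT cells with SFN. Length, GC content or RNA quality as a source of this difference was not tested. Ribosomal protein genes, which are short, took 6.76% of counts in Nrf2-/- replicate 1 and 3.78% in replicate 2, against 5.40% and 5.46% in WT.

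**Figure D1:**
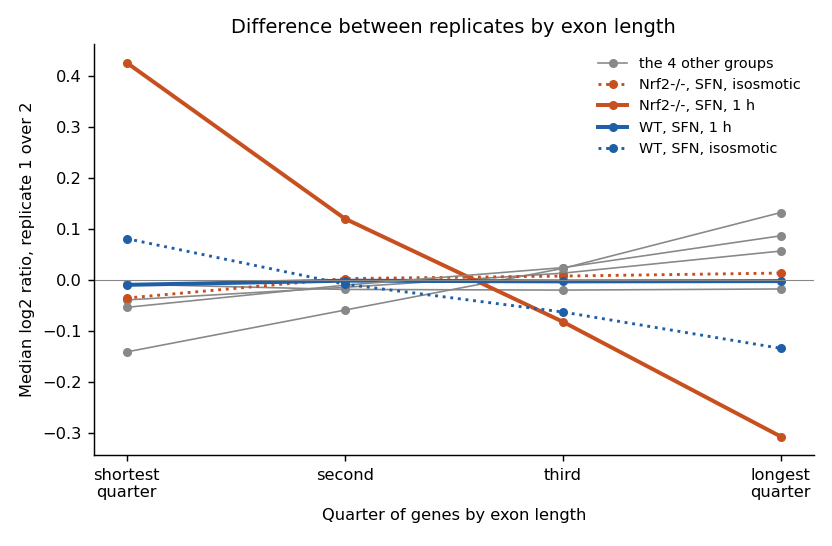
Median log2 ratio of replicate 1 over replicate 2 (y axis) for genes in 4 classes of exon length (x axis), 1 line for each of the 8 pairs of libraries, over genes with a mean of at least 50 counts. The Nrf2-/- pair at 1 h runs from 0.43 to -0.31, and the WT pair at 1 h stays near 0.

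**Figure D2:**
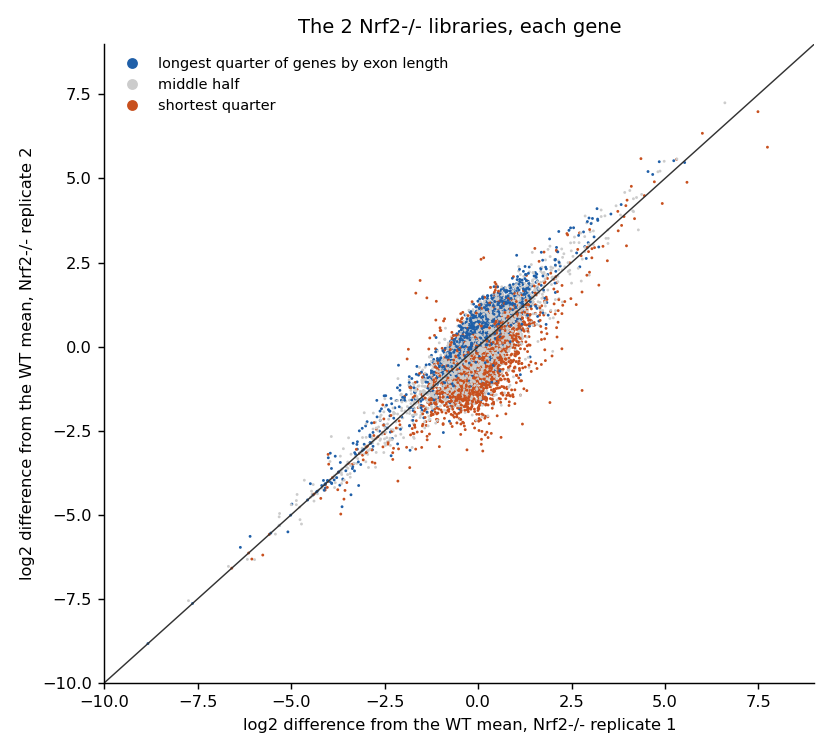
Each point is a gene with a mean of at least 50 counts. The axes give its log2 difference from the WT mean (CPM plus 0.5) in Nrf2-/- replicate 1 (x) and replicate 2 (y), coloured by class of exon length, and the line marks equal values. Large differences lie along the line in both libraries, while the shortest class spreads below it and the longest class above it.

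Which genes differed between the genotypes was tested with edgeR's quasi-likelihood F-test on the 4 libraries, with Benjamini-Hochberg adjusted p under 0.05 over all 16364 genes. It called 1651 genes (10.1%), 752 higher in Nrf2-/- cells (4.60%) and 899 lower (5.49%), and 1441 of them differed at least 2-fold. The split leaned the other way with DESeq2 (51.5% of calls higher), with limma voom (58.2% higher) and after removal of the trend with exon length and GC content, an alternative chosen after seeing the data (57.1% higher). The median log2 fold change over all genes tested was -0.02. Both Nrf2-/- libraries lay above both WT libraries for 4883 genes (29.8%) and below both for 5445 (33.3%). The test found mainly large differences. Simulated counts used 1 spread per gene, shared by both genotypes. There 90 of 100 genes changed 4-fold were recovered but 14 of 100 changed 2-fold. In the data the Nrf2-/- pair spread more than the WT pair and differed with exon length, so these rates need not hold. The count was 10678 without Nrf2-/- replicate 1, 8752 without Nrf2-/- replicate 2, 1047 without WT replicate 1 and 1078 without WT replicate 2. The lone library was then assumed to vary like the other group.

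The targeted gene checked the labels first. Nfe2l2 (ENSMUSG00000015839.6, chr2:75675513-75704641 on the minus strand of GRCm38) stood at 76.9 and 73.5 CPM in the WT libraries and 11 and 11 CPM in the Nrf2-/- libraries, a log2 fold change -2.76 ± 0.16 (SE), adjusted p = 0.00369. Both Nrf2-/- libraries were low and equal, and the groups did not overlap. Transcript was still counted, and the edit itself cannot be read from gene counts. Without SFN, at the same 1 h of stress, WT cells stood at 63.8 and 69.7 CPM, and isosmotic Nrf2-/- cells at 11.1 and 11.6 CPM. Keap1, the adaptor that holds Nrf2 low, was at 57.6 and 62.6 CPM in WT and 56.7 and 55.9 CPM in Nrf2-/- libraries, which was not called (adjusted p = 0.747, log2 fold change -0.08, and 0.35 after removal of the trend with length and GC content). Among 11 pathway regulators, Nfe2l2 was the one that was called, and the list median was -0.08 (0.04 and -0.10 in the 2 Nrf2-/- libraries, each against the WT mean). Bach1, a repressor that competes for AREs, was at 30.8 and 31.7 against 42.7 and 59.5 CPM (adjusted p = 0.111). Sqstm1, the autophagy receptor that binds Keap1, was at 454 and 449 against 464 and 336 CPM, with overlapping groups (adjusted p = 0.66).

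Genes of the Nrf2 programme were lower as a group. Of 62 tested members of 7 lists of known Nrf2 targets, 23 were called lower and 3 higher, against 5.49% and 4.60% of all genes. Their median log2 fold change was -0.87, and it was -0.61 in Nrf2-/- replicate 1 and -0.96 in replicate 2 when each was set against the WT mean. In 43 members both Nrf2-/- libraries lay below both WT libraries, and in 11 they lay above, where the same holds for 33.3% and 29.8% of all genes. These lists are known targets from the literature and were assembled with earlier results of these data known.

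**Figure D3:**
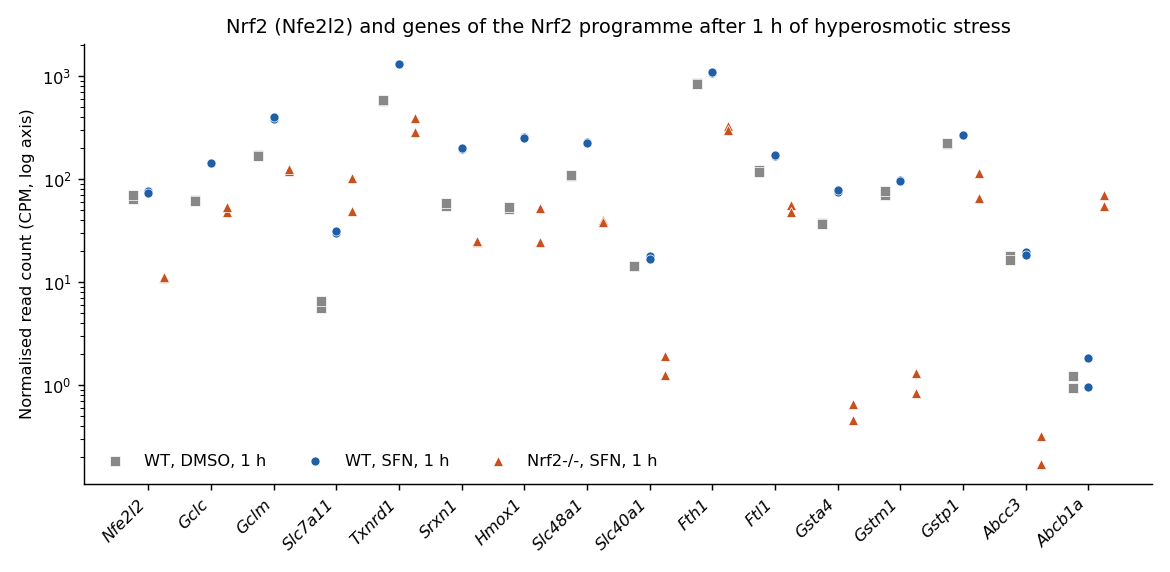
Normalised read count in CPM (log axis) of Nfe2l2 and 15 genes of the Nrf2 programme, 2 points per group, 1 for each library: WT with DMSO and 1 h of stress (grey squares), WT with SFN and 1 h (blue circles) and Nrf2-/- with SFN and 1 h (orange triangles). The Nrf2-/- points lie below both WT groups for all genes shown except Hmox1, Slc7a11 and Abcb1a.

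Glutathione synthesis was led by Gclm and Gclc, the modifier and catalytic subunits of glutamate-cysteine ligase. Gclm stood at 385 and 398 CPM in WT and 118 and 125 CPM in Nrf2-/- libraries (log2 fold change -1.67 ± 0.16 (SE), adjusted p = 0.00877). Gclc went from 143 and 142 CPM to 48.1 and 53.1 CPM (log2 fold change -1.48 ± 0.15 (SE), adjusted p = 0.01). Neither subunit overlapped between the groups, and both Nrf2-/- libraries were low. Gss, glutathione synthetase, was at 35.5 and 33.6 against 19.2 and 14.2 CPM (log2 fold change -1.03 ± 0.21 (SE), adjusted p = 0.0488). Gsr, which regenerates reduced glutathione, was at 273 and 267 against 184 and 135 CPM and was not called (adjusted p = 0.0929). In all, 3 of 8 members fell (37.5%, against 5.49% of all genes) and 0 rose, with a median of -0.89.

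In the thioredoxin and peroxiredoxin list 2 of 5 members fell (40%, against 5.49% of all genes) and 0 rose, with a median of -0.58 that was -1.57 without Nrf2-/- replicate 1 and -0.25 without replicate 2. Txnrd1, thioredoxin reductase, was among the most abundant Nrf2 targets at 1296 and 1308 CPM in WT, and it stood at 388 and 284 CPM in Nrf2-/- libraries (log2 fold change -1.94 ± 0.22 (SE), adjusted p = 0.014). Srxn1, the sulfiredoxin that repairs overoxidised peroxiredoxins, was at 197 and 199 CPM in WT and 24.1 and 24.8 CPM in Nrf2-/- libraries (log2 fold change -3.00 ± 0.15 (SE), adjusted p = 0.00351). The Nrf2-/- pair was nearly identical for Srxn1, far below WT. Prdx1, a peroxiredoxin often listed beside these enzymes, did not follow them, at 430.4 and 419 CPM in WT and 529 and 356 CPM in Nrf2-/- libraries, 1 above and 1 below WT (adjusted p = 0.873). Txn1, thioredoxin itself, was at 448 and 438 CPM against 444 and 145 CPM, so that replicate 2 alone was low (adjusted p = 0.514).

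Promoter windows of these genes show how the element and the response lay side by side. RefSeq start sites on GRCm38.p6 were taken with 250 bases before and 50 after, and the core of the ARE, TGACNNNGC on either strand, was searched. It was found for 16.7% of the 11178 tested genes that had a window (18.0% of those called lower and 17.0% of those called higher) and for 14 of 52 Nrf2 targets with a window (26.9%). Of 17 targets called lower that had a window, 5 held it (29.4%). The windows of Gclm, Srxn1 and Txnrd1, which fell, are printed beside that of Prdx1, which was not called, to show that the letters were present in both, with the match in capitals and each sequence given 5′ to 3′ on the strand of the gene. The match starts 134 bases before the start site in Gclm, 92 before it in Txnrd1 and 133 before it in Prdx1, and 28 bases after it in Srxn1, and in all 4 it reads on the opposite strand (TGACGGTGC in Gclm, TGACCTAGC in Srxn1, TGACAAAGC in Txnrd1, TGACTCAGC in Prdx1).
Gclm, chr3:122245307-122245606, plus strand: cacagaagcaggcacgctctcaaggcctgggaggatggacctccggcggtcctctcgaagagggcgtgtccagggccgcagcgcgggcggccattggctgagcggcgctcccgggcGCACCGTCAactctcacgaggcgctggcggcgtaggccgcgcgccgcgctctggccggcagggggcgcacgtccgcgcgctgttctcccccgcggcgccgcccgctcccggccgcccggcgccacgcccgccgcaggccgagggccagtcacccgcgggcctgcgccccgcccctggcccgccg
Srxn1, chr2:152105274-152105573, plus strand: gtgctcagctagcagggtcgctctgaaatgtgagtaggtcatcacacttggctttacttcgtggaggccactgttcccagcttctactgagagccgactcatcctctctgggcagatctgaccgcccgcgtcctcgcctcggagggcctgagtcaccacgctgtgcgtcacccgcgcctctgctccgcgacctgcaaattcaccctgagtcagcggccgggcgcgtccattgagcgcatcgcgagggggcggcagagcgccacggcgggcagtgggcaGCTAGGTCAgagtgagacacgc
Txnrd1, chr10:82858956-82859255, plus strand: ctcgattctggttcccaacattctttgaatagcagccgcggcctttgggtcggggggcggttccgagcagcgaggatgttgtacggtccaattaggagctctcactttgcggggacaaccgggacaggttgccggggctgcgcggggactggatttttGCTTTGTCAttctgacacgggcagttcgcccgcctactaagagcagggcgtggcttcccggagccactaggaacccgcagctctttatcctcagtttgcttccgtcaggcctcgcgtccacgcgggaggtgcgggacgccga
Prdx1, chr4:116685349-116685648, plus strand: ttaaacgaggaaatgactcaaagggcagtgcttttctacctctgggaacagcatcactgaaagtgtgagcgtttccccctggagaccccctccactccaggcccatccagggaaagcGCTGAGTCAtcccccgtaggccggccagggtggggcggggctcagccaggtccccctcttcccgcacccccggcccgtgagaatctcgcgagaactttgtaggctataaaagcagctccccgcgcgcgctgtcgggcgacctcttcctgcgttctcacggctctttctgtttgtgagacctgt
A match is a description of letters in these windows, and AREs further away were not searched.

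Glutathione S-transferases, which attach glutathione to electrophiles, had 7 of 14 tested members lower (50%, against 5.49% of all genes) and 0 higher. Both Nrf2-/- libraries lay below both WT libraries in 13, as in 33.3% of all genes. The median log2 fold change was -3.16, or -2.25 with genes that held no read in Nrf2-/- libraries set at a floor of 3 counts per library. On the log2(CPM + 0.5) scale, which understates low genes, it was -1.22 and -1.52 in the 2 Nrf2-/- libraries against the WT mean. Gstm1 stood at 98.7 and 95.9 CPM in WT and 1.30 and 0.830 CPM in Nrf2-/- libraries (log2 fold change -6.50 ± 0.28 (SE), adjusted p = 0.00351). Gsta4 was at 74.7 and 77.3 against 0.652 and 0.458 CPM (log2 fold change -7.08 ± 0.25 (SE), adjusted p = 0.00351). Gsta1 was counted at 24.6 and 22.5 CPM in WT and not at all in either Nrf2-/- library, so it was at least 275-fold lower with the floor of 3 counts per library. Near loss of expression was not shared by the whole family. Gstp1, the most abundant member, was at 268 and 267 CPM in WT and 113 and 65.2 CPM in Nrf2-/- libraries (log2 fold change -1.58 ± 0.30 (SE), adjusted p = 0.0414), and Mgst3, a microsomal member, was at 14.2 and 17.1 against 34.9 and 16.9 CPM (adjusted p = 0.274). The near-identical members Gsta1 and Gsta2, and the Gstm genes, can share reads, and how the counting treated such reads is not given in the sources used here.

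In the list of heme breakdown and iron handling 5 of 9 members fell (55.6%, against 5.49% of all genes) and 0 rose, with a median of -1.70 (-1.6 and -1.82 in the 2 Nrf2-/- libraries on the log2(CPM + 0.5) scale). Hmox1, heme oxygenase 1 (chr8:75093621-75100589, plus strand), was at 255 and 253 CPM in WT and 51.7 and 24.3 CPM in Nrf2-/- libraries (log2 fold change -2.73 ± 0.39 (SE), adjusted p = 0.0236). Both Nrf2-/- libraries were far below WT, with replicate 1 above replicate 2. Slc48a1, a heme transporter, was at 226 and 222 against 40.2 and 37.8 CPM (log2 fold change -2.51 ± 0.15 (SE), adjusted p = 0.00396). Slc40a1, the iron exporter ferroportin, was at 18.0 and 16.5 against 1.25 and 1.92 CPM (log2 fold change -3.43 ± 0.30 (SE), adjusted p = 0.00774). The ferritin subunits fell side by side. Fth1 was at 1062 and 1082 CPM in WT and 329 and 299 CPM in Nrf2-/- libraries, and Ftl1 at 168 and 169 CPM against 55.3 and 47.7 CPM (log2 fold changes -1.76 and -1.70, adjusted p = 0.00924 and 0.00827). Blvrb, biliverdin reductase B, was at 23.8 and 26.1 against 15 and 6.73 CPM (adjusted p = 0.139).

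The remaining target lists were mixed. Nqo1, a quinone reductase that serves as the standard Nrf2 readout in many cells, was low in WT at 5.55 and 6.16 CPM and was at 0.255 and 0.114 CPM in Nrf2-/- libraries (log2 fold change -4.95 ± 0.43 (SE), adjusted p = 0.00776). Cbr3, a carbonyl reductase, was at 6.75 and 7.23 against 0.283 and 0.401 CPM (log2 fold change -4.33, adjusted p = 0.00586), and Nqo2 at 24.7 and 26.0 against 12.4 and 13.2 CPM (-0.97, adjusted p = 0.0346). In this list of quinone, aldehyde and epoxide enzymes 3 of 12 fell (25%) and 1 rose (8.33%), against 5.49% and 4.60% of all genes, with a median of -0.30. Against the WT mean on the log2(CPM + 0.5) scale, that median was -0.16 in Nrf2-/- replicate 1 and -0.53 in replicate 2. Abcc3, an exporter of glutathione and glucuronide conjugates, was at 19.6 and 18.4 against 0.170 and 0.315 CPM (log2 fold change -6.26 ± 0.34 (SE), adjusted p = 0.00369), and Abcg2, another exporter, at 32.0 and 30.3 against 12.0 and 13.3 CPM (-1.28, adjusted p = 0.02). Pgd, an NADPH-producing enzyme of the pentose phosphate pathway, was at 414 and 411 against 238 and 183 CPM (-0.96, adjusted p = 0.049), and G6pdx, which feeds it, at 155 and 151 against 96.4 and 103 CPM (adjusted p = 0.0706). The call of Pgd held in 8 of 12 alternatives. Of 8 ABC exporters 2 fell (25%) and 1 rose (12.5%), with a median of 0.06, and of 6 NADPH-producing enzymes 1 fell and 1 rose (16.7% each, median -0.55, or -0.37 without Nrf2-/- replicate 2 and -0.31 after removal of the trend with length and GC content).

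Against this direction stood 3 list members that rose. Abcb1a, a P-glycoprotein gene, was at 1.81 and 0.951 CPM in WT and 54.4 and 69.5 CPM in Nrf2-/- libraries (log2 fold change 5.50 ± 0.39 (SE), adjusted p = 0.00586). Idh1, the cytosolic isocitrate dehydrogenase, was at 24.7 and 21.5 against 45.5 and 51.9 CPM (1.09, adjusted p = 0.0298). Akr1c13, an aldo-keto reductase, was at 3.69 and 3.93 against 18.3 and 12.9 CPM (2.04, adjusted p = 0.0176). Slc7a11, the cystine transporter that supplies glutathione synthesis, is often taken as a Nrf2 target but was at 29.9 and 31.1 CPM in WT and 49.3 and 102 CPM in Nrf2-/- libraries. Both Nrf2-/- values were above WT and lay far apart from each other, and the gene was not called (log2 fold change 1.33 ± 0.38, adjusted p = 0.0986). It was higher in both isosmotic Nrf2-/- libraries too, at 73.4 and 67.8 CPM against 37.4 and 42.2 CPM in isosmotic WT.

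The targets were also set beside WT cells that had received DMSO in place of SFN at the same 1 h of stress, as a count of non-overlapping values with no test. Of all 62 tested targets, 35 (56.5%) had both Nrf2-/- libraries below both of these WT libraries and 13 (21.0%) above, against 32.6% and 30.0% of all genes tested. Both SFN-treated WT libraries lay above the DMSO libraries in 44 targets (71.0%), against 24.5% of all genes. Among the 23 targets called lower, 21 lay below the DMSO libraries, but a low value in Nrf2-/- cells had selected these, and 897 of the 899 genes called lower at large lay there too. Srxn1 was at 54.9 and 57.9 CPM in the WT libraries with DMSO, more than in either Nrf2-/- library. Txnrd1 was at 574 and 583 CPM and Fth1 at 847 and 843 CPM there, also above the Nrf2-/- values. Hmox1 differed from this pattern, at 51.0 and 53.3 CPM in WT with DMSO, since Nrf2-/- replicate 1 lay between those values and replicate 2 below them.

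A second list was taken from libraries outside this comparison, namely the 223 genes that SFN raised at least 1.5-fold in isosmotic WT cells. Of 212 that were tested here, 49 were lower in Nrf2-/- cells (23.1%) and 21 higher (9.91%), both above the 5.49% and 4.60% of all genes. The median log2 fold change was -0.18. Their medians were -0.20 and -0.11 in the 2 Nrf2-/- libraries, and the list median moved to -0.03 after removal of the trend with length and GC content. The ARE core was present in the windows of 9 of the 37 genes that were both SFN-induced and lower and had a window (24.3%), against 27 of 162 SFN-induced genes (16.7%) and 16.7% of all genes tested.

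The study's question concerned transporters that SFN raises under stress. Slc2a1, the glucose transporter GLUT1 (chr4:119108711-119137983, plus strand), stood at 134 and 126 CPM in WT and 75.9 and 73.2 CPM in Nrf2-/- libraries (log2 fold change -0.79 ± 0.14 (SE), adjusted p = 0.0367), below the 101 and 101 CPM of WT cells with DMSO. The call held in 9 of 12 alternatives, with a log2 fold change between -0.84 and -0.53 in all 12. It was lost without WT replicate 1 (edgeR adjusted p = 0.467, the highest of the 12), without WT replicate 2, and after removal of the trend with length and GC content. Among other transporters that the study's text names, Trpv1, Trpv3 and Slc38a8 did not pass the filter and stood below 0.5 CPM in all 4 libraries. Slc5a10, Slc22a4 and Trpv2 were tested and not called. Slc5a10 was at 0.864 and 1.15 CPM in WT and 0.312 and 0.172 CPM in Nrf2-/- libraries (adjusted p = 0.0776), and Slc22a4 at 2.15 and 2.13 against 1.76 and 0.973 CPM (adjusted p = 0.343). Trpv2 was at 0.864 and 0.651 against 1.76 and 2.32 CPM (adjusted p = 0.0767). These 3 genes stood at few counts, and a missed threshold does not show that they were alike in the genotypes.

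Among 21 genes of glucose uptake and glycolysis 3 fell, Slc2a1, Hk1 and Slc16a3, and 0 rose (14.3% called, against 10.1% of all genes, median -0.16). Against the WT mean on the log2(CPM + 0.5) scale, the list median was -0.035 in Nrf2-/- replicate 1 and -0.24 in replicate 2. Hk1, a hexokinase, was at 151 and 158 against 78.5 and 89.1 CPM (-0.87, adjusted p = 0.0366). Slc16a3, a lactate exporter, was at 7.30 and 6.03 against 0.482 and 0.601 CPM (-3.60, adjusted p = 0.00746). Pgk1, an X-linked glycolytic enzyme, was at 666 and 660.4 against 1179.7 and 1011 CPM (adjusted p = 0.07).

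Among NFAT5 and organic osmolyte genes 2 of 12 fell and 1 rose, 25% called against 10.1% of all genes, with a median of -0.22. Nfat5 was at 349 and 334 CPM in WT and 255 and 470.1 CPM in Nrf2-/- libraries, 1 below and 1 above WT (adjusted p = 0.864). Its log2 fold change of 0.10 became -0.41 without Nrf2-/- replicate 2 and -0.14 after removal of the trend with length and GC content. Slc6a6, the taurine transporter, was at 273 and 272 against 144 and 149 CPM (log2 fold change -0.88 ± 0.15 (SE), adjusted p = 0.0332). Hspa1a, an inducible Hsp70 gene, was at 16.5 and 15 against 2.38 and 1.72 CPM (-2.93, adjusted p = 0.008), while its near-identical copy Hspa1b, which can share reads with it, was at 425 and 428 against 381 and 253 CPM (adjusted p = 0.323). Aqp1, a water channel, was the member that rose, at 1.62 and 0.826 against 7.68 and 5.58 CPM (2.45, adjusted p = 0.034). Akr1b3, the aldose reductase that makes sorbitol, was at 432 and 428 against 291 and 273 CPM (adjusted p = 0.0845), and Slc5a3, the inositol transporter, at 79.8 and 76.4 against 118 and 233 CPM (adjusted p = 0.11).

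**Figure D4:**
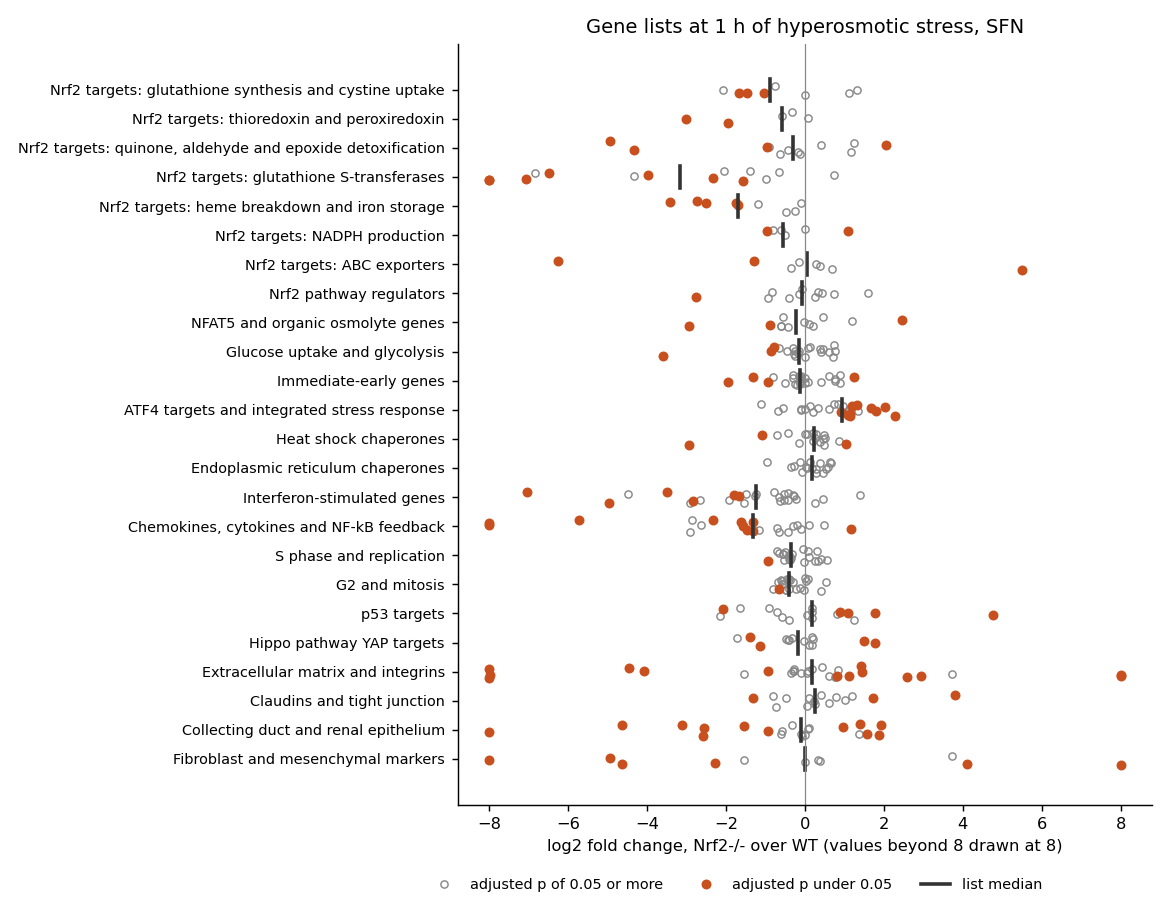
Log2 fold change of Nrf2-/- over WT (x axis) for each tested member of 24 gene lists (rows), with filled points for adjusted p under 0.05, open points for the rest and a bar at the list median. Values beyond 8 in either direction are drawn at 8. Filled points lie only below 0 in the glutathione S-transferase and the heme and iron lists and only above 0 in the ATF4 list.

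Genes of the integrated stress response went the other way. ATF4 is the transcription factor that raises amino acid synthesis and import when translation initiation is curbed, and 10 of 26 members of its list rose (38.5%, against 4.60% of all genes) while 0 fell, with a median of 0.94 (0.83 and 0.81 in the 2 Nrf2-/- libraries). Asns, asparagine synthetase, was at 131 and 129.6 CPM in WT and 374 and 532 CPM in Nrf2-/- libraries (log2 fold change 1.81 ± 0.24 (SE), adjusted p = 0.0191). Cth, which makes cysteine from cystathionine, was at 9.32 and 11 against 59.9 and 39.0 CPM (log2 fold change 2.29 ± 0.27 (SE), adjusted p = 0.0156). Pycr1 and Aldh18a1, both of proline synthesis, were at 10.3 and 10.8 against 32.9 and 33.2 CPM and 209.7 and 211 against 453 and 498 CPM (log2 fold changes 1.66 and 1.19, adjusted p = 0.00954 and 0.0215). Every one of these Nrf2-/- values lay above both WT values. Psph of serine synthesis, Mthfd2 of mitochondrial folate metabolism, Stc2, Trib3, Sesn2 and Slc1a4 also rose, with log2 fold changes from 0.91 (Slc1a4) to 2.04 (Stc2). Atf4 mRNA itself was at 424 and 422 against 457 and 329 CPM, with overlapping groups (adjusted p = 0.806), and Ddit3, a stress-induced factor downstream of it, at 11 and 10.2 against 30.5 and 16.7 CPM (adjusted p = 0.097). In the isosmotic libraries Asns was also higher in Nrf2-/- cells, at 133 and 147 CPM in WT and 429 and 406 CPM in Nrf2-/- cells.

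Of 18 heat shock genes 2 fell, Hspa1a and Dnajb4, and 1 rose, Hspb8, 16.7% called against 10.1% of all genes. Their median was 0.24, but 0.28 in Nrf2-/- replicate 1 and -0.0070 in replicate 2. Of 17 endoplasmic reticulum chaperone genes, with a median of 0.17, edgeR called 0. At an unadjusted p under 0.05 in that test stood 5 of the 17, a share close to that of all genes (4648 of 16364). Immediate-early genes, which respond within minutes to many stimuli, had 3 of 25 lower and 1 higher (16% called), with a median of -0.12. Fos was at 14.9 and 16.6 CPM in WT and 7.54 and 4.92 CPM in Nrf2-/- libraries (-1.33, adjusted p = 0.0489), and Egr2 at 2.85 and 2.80 against 0.822 and 0.630 CPM (-1.95, adjusted p = 0.0292). The phosphatases of the MAP kinase pathway split, with Dusp1 at 74.4 and 73.4 against 37.2 and 39.3 CPM (-0.94, adjusted p = 0.0264) and Dusp6 at 56.9 and 56.6 against 117 and 147 CPM (1.23, adjusted p = 0.0246).

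Of 22 chemokines, cytokines and NF-kB feedback genes 9 fell (40.9%, against 5.49% of all genes) and 1 rose, with a median of -1.32 (-1.07 and -1.41 in the 2 Nrf2-/- libraries). Ccl2, a monocyte chemoattractant, was at 47.6 and 47.8 CPM in WT and had no read in either Nrf2-/- library, at least 559-fold lower. Lcn2, a secreted marker of tubular injury, was at 4.48 and 4.98 against 0.113 and 0.0572 CPM (log2 fold change -5.73 ± 0.42 (SE), adjusted p = 0.0059). Csf1, the macrophage growth factor, was at 233 and 236 against 101 and 84.4 CPM (log2 fold change -1.33 ± 0.17 (SE), adjusted p = 0.0171). Nfkbia, the inhibitor induced by NF-kB, was at 84.2 and 86.2 against 32.1 and 23.2 CPM (log2 fold change -1.61 ± 0.21 (SE), adjusted p = 0.0187), and Nfkbie, Cxcl10, Il11, Cx3cl1 and Cxcl5 also fell. Cxcl16 was the member that rose, at 14.1 and 15.5 against 33.7 and 32.7 CPM (1.18, adjusted p = 0.0222). Interferon-stimulated genes had 6 of 27 lower (22.2%) and 0 higher with a median of -1.25, but most were low in these cells, with a median of 2.2 CPM in WT. Gbp3, a guanylate-binding protein, was at 18.7 and 19.8 against 0.227 and 0.0572 CPM (-7.04, adjusted p = 0.00552) and Oas1a, an RNA sensor, at 6.44 and 6.08 against 1.59 and 1.95 CPM (-1.81, adjusted p = 0.022). Gbp2, Psmb8, Rsad2 and Tap1 were the other members that fell, all from at most 3.05 CPM in WT.

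Extracellular matrix genes split, 8 of 29 higher (27.6%) and 6 lower (20.7%), against 4.60% and 5.49% of all genes, with a median of 0.19. Transcripts of 2 chains of type IV collagen, the network of basement membranes, were nearly absent from the Nrf2-/- libraries. Col4a1 was at 233 and 222 CPM in WT and had no read in either Nrf2-/- library, at least 2664-fold lower, and its head-to-head neighbour Col4a2 was at 131 and 132 against 0.113 and 0.200 CPM (-9.67, adjusted p = 0.00351). The 2 genes overlap in antisense, and whether the counting used strand is not given. Sparc, a matrix glycoprotein, was at 233 and 232 against 10.2 and 10.6 CPM (log2 fold change -4.47 ± 0.17 (SE), adjusted p = 0.00351). In the opposite direction, Tnc, tenascin C, was at 33.0 and 31.9 against 238 and 258 CPM (log2 fold change 2.95 ± 0.16 (SE), adjusted p = 0.00351), and Col6a3, a type VI collagen chain, went from 2 reads over both WT libraries to 19.3 and 23.8 CPM. Integrins went both ways, with Itga2 at 19.4 and 21.2 against 0.793 and 1.6 CPM (-4.07) and Itga6 at 110.4 and 111 against 228 and 354 CPM (1.41, adjusted p = 0.0092 and 0.0402). Col3a1, Col5a2, Col6a1, Col6a2, Itgb4 and Itgb6 also rose, and Col5a1 and Itga5 also fell. Not every risen gene named in this paragraph is a member of the counted list. Fn1, fibronectin, was at 2382 and 2362 against 3277 and 3866 CPM (adjusted p = 0.125). The core of the ARE was found for 16.7% of all tested genes with a window and 18.0% of those called lower, and a link to Nrf2 was not tested. The window of Col4a2 is shown because the pair was nearly absent from Nrf2-/- cells and the window holds an ARE core. It reads TGACTCTGC on the strand of the gene, 74 bases before the start site, while the window of Col4a1 on the other strand has no match.
Col4a2, chr8:11312555-11312854, plus strand: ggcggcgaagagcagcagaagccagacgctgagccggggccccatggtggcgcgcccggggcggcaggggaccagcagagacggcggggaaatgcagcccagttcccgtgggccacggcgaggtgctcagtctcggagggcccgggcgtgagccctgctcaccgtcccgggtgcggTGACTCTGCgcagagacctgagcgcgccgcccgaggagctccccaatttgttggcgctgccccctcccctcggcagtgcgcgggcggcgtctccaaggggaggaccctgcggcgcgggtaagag

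Epithelial and mesenchymal markers each went both ways. Among epithelial genes that rose, Epcam, a surface protein of epithelia, was at 73.7 and 74.8 CPM in WT and 373 and 189 CPM in Nrf2-/- libraries (log2 fold change 1.93 ± 0.35 (SE), adjusted p = 0.0391). Krt7, a keratin of ducts, was at 311 and 313 against 1309 and 952 CPM (log2 fold change 1.87 ± 0.22 (SE), adjusted p = 0.016), and Cdh1, E-cadherin, at 231 and 226 against 424 and 459 CPM (log2 fold change 0.96 ± 0.16 (SE), adjusted p = 0.0321). Grhl2, a factor that maintains epithelia, was also higher, at 35.0 and 36.4 against 87.4 and 99.4 CPM (1.40, adjusted p = 0.0125). The tight junction genes Cldn1 and Ocln rose and Cldn3 fell, among 15 tested (20% called, against 10.1% of all genes, median 0.25). Cldn1 was at 11.9 and 12.5 against 124 and 212 CPM (3.8, adjusted p = 0.00774). Among 11 tested fibroblast and mesenchymal markers 4 fell and 2 rose (54.5% called, against 10.1% of all genes, median 0.01, or -0.34 in Nrf2-/- replicate 1 and 0.28 in replicate 2). Vim, vimentin, made up most of their summed level, at 912 and 922 against 151 and 223 CPM (log2 fold change -2.28 ± 0.26 (SE), adjusted p = 0.0135). Zeb1, a repressor of Cdh1, was at 18.2 and 17.0 against 0.567 and 0.572 CPM (log2 fold change -4.93 ± 0.24 (SE), adjusted p = 0.00351), and Twist1, at 6.02 and 6.31 CPM in WT, had no read in Nrf2-/- libraries. Acta2, smooth muscle actin, also fell. The 2 that rose were Postn and Col3a1, from at most 0.175 CPM in WT.

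Regulators of kidney duct identity were divided in the same list of 21 collecting duct and renal epithelial genes, in which 5 rose (23.8%) and 7 fell (33.3%), against 4.60% and 5.49% of all genes (median -0.09). All 31 members, 2 of them at 0, summed to 3445 and 3425 CPM in WT and 4558 and 3865 CPM in Nrf2-/- libraries, with Krt8 the most abundant in WT. Pax2, which specifies the nephric lineage, was at 142 and 139 CPM in WT and 23.7 and 23.4 CPM in Nrf2-/- libraries (log2 fold change -2.56 ± 0.15 (SE), adjusted p = 0.00369), and the Nrf2-/- pair was nearly identical. Cdh16, the kidney cadherin, was at 172 and 175 against 25.5 and 14.0 CPM (log2 fold change -3.13 ± 0.33 (SE), adjusted p = 0.0111). Ehf and Elf3, epithelial ETS factors, were at 17.1 and 13.9 against 0 and 0.114 CPM and 23.8 and 22.5 against 8.78 and 6.93 CPM (-7.99 and -1.55, adjusted p = 0.008 and 0.0197). Gata2, Gata3 and Pax8 were the other members that fell, and Hoxd8 rose with Epcam, Krt7, Cdh1 and Grhl2. Among the few tested markers of other cells, Aqp1 rose and Lrp2 fell of 4 proximal tubule markers, Csf1r fell of 5 immune markers, neither of 2 endothelial markers was called, and 0 intercalated cell markers passed the filter. The call of Csf1r held in 6 of 12 alternatives. The part of other cell types in these differences was not tested. In bulk libraries, fewer cells of a type and less RNA per cell cannot be told apart.

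Few proliferation genes were called, with 1 of 21 S phase genes (Slbp) and 1 of 22 mitotic genes (Nusap1) lower and 0 higher, 4.76% and 4.55% against 10.1% of all genes. The call held in 10 of 12 alternatives for Slbp and in 6 of 12 for Nusap1. The medians of the 2 lists were -0.35 and -0.40, and these lay at -0.10 and -0.27 in Nrf2-/- replicate 1 and at -0.49 and -0.56 in replicate 2. Of 17 p53 targets 4 rose and 1 fell. These were 29.4% of the list, against 10.1% of all genes. Their list median was 0.17, but 0.23 in Nrf2-/- replicate 1 and -0.35 in replicate 2. Perp, a desmosomal and apoptotic effector, was at 48.0 and 48.2 against 149.8 and 175 CPM (log2 fold change 1.77 ± 0.17 (SE), adjusted p = 0.00842), and Zmat3, Eda2r and Sesn2 also rose. Gdf15, a stress cytokine that p53 and ATF4 can both raise, was the member that fell, at 296 and 299.5 against 90.3 and 49.0 CPM (log2 fold change -2.09 ± 0.32 (SE), adjusted p = 0.0276). Of 14 YAP targets (median -0.19), 2 fell and 2 rose, 28.6% called. Ccn1 fell from 1847 and 1848 to 829.9 and 569 CPM (-1.39, adjusted p = 0.0355) with F3, and Dlc1 rose from 153 and 147 to 348 and 494 CPM (1.5, adjusted p = 0.0274) with Fstl1.

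The largest differences were between presence and absence. Of the genes tested, 83 had at most 3 counts in each Nrf2-/- library and at least 100 in each WT library, and 12 showed the reverse. Besides Col4a1, Ccl2 and Gsta1, the 15 largest falls comprised Peg3, Havcr1, Slc16a10, Trp53i11, Lrrk2, Dapk1, Pcbp3, Robo1, Gata6, Rcn1, Nexmif and C1ql1, none of which had a read in either Nrf2-/- library. Peg3, an imprinted zinc finger gene, was at 102 and 96.5 CPM in WT, at least 1162-fold higher than in Nrf2-/- cells. Havcr1, the kidney injury molecule Kim-1, was at 35.6 and 33.9 CPM in WT, at least 407-fold higher. Cyp1b1, a cytochrome P450, had 2 reads over both Nrf2-/- libraries against 40.3 and 39.1 CPM in WT, a ratio of 1393 (exact 95% interval 385 to 11507, counting error only). Among the 15 largest rises, Dynap was at 19.4 and 23.3 CPM in Nrf2-/- libraries with no read in WT, at least 277-fold higher. Aim2, a sensor of cytosolic DNA, was at 9.89 and 11 CPM with none in WT, at least 136-fold higher. Cldn9, a claudin, was at 0.131 and 0.0501 CPM in WT and 106 and 74.4 CPM in Nrf2-/- libraries (log2 fold change 9.93 ± 0.44 (SE), adjusted p = 0.00351), and Elavl4, an RNA-binding protein of neurons, at 0 and 0.100 against 53 and 83.2 CPM (10.30, adjusted p = 0.00549). The other rises were Chodl, Clec2f, Xlr, Krt6a, Aox4, Mgp, Col6a3, Rhox5, Hdx, Gap43 and Ackr3. Nrf2-/- replicates differed for Rhox5, at 147 and 41.6 CPM.

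Chromosome X stood apart. Of 504 X-linked genes tested, 149 were higher in Nrf2-/- cells and 27 lower, against 590 and 860 of 15528 autosomal genes, and the medians were 0.86 and -0.04. Among genes with a mean of at least 50 counts, the X median was 0.84 in Nrf2-/- replicate 1 and 0.87 in replicate 2 (378 genes), while autosomal medians of the log2 fold change lay between -0.24 (chromosome 2) and 0.28 (chromosome 16). The same comparison in isosmotic cells gave an X median of 0.91. Xist, the RNA of the inactive X chromosome, which was looked up after the X values were seen, stood at 0.471 and 0.501 CPM in WT and 1.78 and 4.15 CPM in Nrf2-/- libraries. Pgk1, Rhox5, Hdx, Xlr and Eda2r, named above among higher values, are X-linked. Among X-linked genes named above, Nexmif went the other way, at 10.4 and 9.99 CPM in WT with no read in Nrf2-/- libraries, and G6pdx was lower but not called. Gene dosage in the 2 lines was not measured, and its part in the result was not tested.

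**Figure D5:**
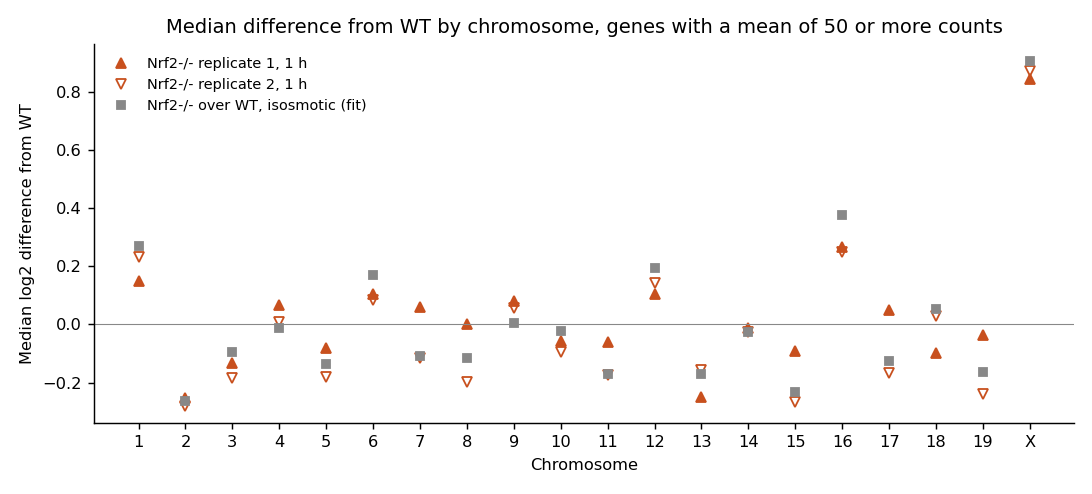
Median log2 difference from WT (y axis) of genes with a mean of at least 50 counts on each chromosome (x axis), for Nrf2-/- replicate 1 and replicate 2 against the WT mean at 1 h (triangles) and for the fitted isosmotic comparison (grey squares). The X chromosome lies at 0.84, 0.87 and 0.91, and all autosomes lie between -0.28 and 0.38.

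Among genes with a mean of at least 50 counts, leaving out provisional gene models, the 10 with the largest ratio between the Nrf2-/- replicates were Rpl24, Pet100, Romo1, Uqcr11, Tomm7, Cops9, Zfas1, Naa38, Ndufs6 and Gadd45g. Uqcr11, a subunit of respiratory complex III, was at 85.2 CPM in replicate 1 and 10.3 CPM in replicate 2, with WT at 82.7 and 77.8 CPM. Romo1, a small mitochondrial membrane protein, was at 32.7 and 3.03 CPM with WT at 27.9 and 32.0 CPM. In both cases replicate 1 was near WT and replicate 2 far below it. Ndufs6, of complex I, and Gadd45g, a stress gene, showed the same order, at 55.9 and 7.70 CPM and 92.2 and 13.1 CPM. Rpl24, a ribosomal protein gene that overlaps another annotated gene on its strand, was the exception, at 0.198 CPM in replicate 1 and 7.50 CPM in replicate 2. None of the 10 was called between the genotypes (lowest adjusted p = 0.451, Gadd45g). The isosmotic Nrf2-/- libraries stood at 25.5 and 26.6 CPM for Uqcr11 and at 8.85 and 9.77 CPM for Romo1, below replicate 1 and above replicate 2. The isosmotic WT libraries with SFN also lay apart, at 70.9 and 29.7 CPM for Uqcr11 and at 33.2 and 12.7 CPM for Romo1.

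Whether the genotype difference depended on the stress was asked with the isosmotic SFN libraries of both genotypes. There the same test called 8035 of 15409 genes (52.1%), with a much closer Nrf2-/- pair. Of 1619 genes called at 1 h and tested in both, 1579 were also called in isosmotic cells, 1578 of them in the same direction. Those 1579 were 97.5% of the calls at 1 h and 20.2% of the 7836 isosmotic calls among genes tested in both. The interaction test over 8 libraries asked whether the difference itself changed, and it called 0 of 17492 genes, with 807 (4.61%) at an unadjusted p under 0.05. DESeq2 called 43, and edgeR called 1638 without Nrf2-/- replicate 1 at 1 h and 879 without replicate 2. For Nrf2 and 3 of its targets the interaction was -0.09 ± 0.18 (log2, SE) for Nfe2l2, -0.06 ± 0.18 for Gclm, 0.24 ± 0.16 for Srxn1 and 0.13 ± 0.42 for Hmox1.

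Genes that respond to 1 h of stress moved in the same direction in both genotypes by their list medians. The 1176 genes that 1 h of stress raised at least 2-fold in WT cells with DMSO were mostly of low abundance, with a median of 0.711 CPM in the WT libraries here. Relative to isosmotic cells of the same genotype, on a log2(CPM + 0.5) scale that understates low genes, their median rise was 0.92 and 0.89 in the WT libraries and 0.70 and 0.80 in the Nrf2-/- libraries, and 90.7% to 97.0% of them rose in each library. The 475 genes that stress lowered had medians of -0.88 and -0.91 in WT and -0.77 and -0.89 in Nrf2-/- libraries. Between the genotypes at 1 h, 14 of 1025 tested stress-induced genes were higher in Nrf2-/- cells (1.37%) and 24 lower (2.34%), below the 4.60% and 5.49% of all genes (median -0.23). Of 341 stress-lowered genes, 13 were higher (3.81%) and 11 lower (3.23%, median 0.22). The interaction, the response in Nrf2-/- cells minus that in WT, had a median of -0.18 over 1031 stress-induced genes, of which 113 stood at an unadjusted p under 0.05 and 0 passed the adjusted threshold. Over 456 stress-lowered genes its median was 0.18, with 41 and 0 in the same order, and of all genes 4.61% stood at an unadjusted p under 0.05. By the interaction medians both responses were smaller in Nrf2-/- cells, and that difference was not called for any single gene of either list. Both lists were chosen by their response in WT cells, so a smaller response in any other line could follow from that choice. The medians cannot tell this apart from an effect of genotype. For stress-lowered genes the library medians overlapped, with Nrf2-/- replicate 2 at -0.89, between the -0.88 and -0.91 of WT.

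The course of 3 stress genes, none of which passed the adjusted threshold, is given as an example. Slc38a2, the amino acid transporter SNAT2 that hypertonicity is known to raise, went from 374 and 474 CPM to 704 and 712 CPM in WT and from 415 and 465 CPM to 447 and 502 CPM in Nrf2-/- cells (interaction -0.63 ± 0.22, unadjusted p = 0.0201 by edgeR's F-test). Klf4, a Krüppel-like factor, went from 6.72 and 6.10 CPM to 27.4 and 27.7 CPM in WT and from 34.4 and 37.2 CPM to 60.8 and 40.8 CPM in Nrf2-/- cells (interaction -1.6 ± 0.26, unadjusted p = 0.000273). Fosb, an AP-1 subunit, went from 1.94 and 2.98 CPM to 9.21 and 9.36 CPM in WT and from 14.3 and 12.5 CPM to 16.1 and 12.0 CPM in Nrf2-/- cells (interaction -1.85 ± 0.33, unadjusted p = 0.00048). For Klf4 and Fosb the isosmotic Nrf2-/- libraries already lay above the isosmotic WT libraries. These genes were chosen after their values were seen. The 10 largest interactions were of genes at or near 0 in 1 group, where a fitted fold change has no fixed size. Zfp518a, Bend4 and Mmp14 had no read in isosmotic Nrf2-/- libraries and were counted at 1.19 and 2.35, 0.198 and 0.458 and 0.255 and 0.343 CPM at 1 h, against 18.9 and 17.4, 47.3 and 47.6 and 20.8 and 22.2 CPM in WT, while Slc39a4 and Pde4c reached WT levels. Tgfbr3, Hs3st1, Col23a1, Sytl3 and Fjx1 made up the other direction.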

How the data were processed

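RNA-seq counts of 4 mIMCD3 libraries were compared, 2 WT and 2 Nrf2-/-, with 12 further libraries of the series for reference. The authors aligned reads to mm10 and deposited raw counts per gene symbol. The paper names Hisat2 as the aligner and the submitters' processing notes name Bowtie2, both with SAMtools and featureCounts. Tool versions, the annotation, strandedness and how shared reads were counted are not given in the sources used here, so reads of paralogs, overlapping and antisense genes may be mixed. One protocol label mentions primary cells, and mIMCD3 was used. Among counts of 1 to 10, 58.0% to 68.5% were even, for a reason that was not tested, and intervals cover counting error only. Lines without a gene name (at most 3 in a library, none in the 4 compared) were left out.

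Analyses used R 4.3.3 with edgeR 4.0.16 (TMM, filterByExpr, robust quasi-likelihood F-test, Benjamini-Hochberg adjusted p under 0.05), limma 3.58.1 and DESeq2 1.42.0. Only the 4 libraries entered the main test, since the Nrf2-/- pair spread more than the 12 others. Normalised read counts (CPM) per library used TMM factors over 16 libraries. Positions and exon lengths came from GENCODE M21, matched by symbol for 98.0% of tested genes, and promoters from RefSeq (GRCm38.p6). Members, gene lists and tests were chosen with earlier results of these data known. Named genes are the study's markers and transporters, list members that are abundant, change most or go against their list, the 15 largest changes in each direction (mean of at least 50 counts), the 10 with the largest ratio between Nrf2-/- libraries, the 5 largest interactions in each direction, and the 10 most abundant genes silent in 1 genotype. Results of a few genes under this rule are not reported here. Tests on simulated counts, with 1 spread per gene shared by all groups, recovered 77 of 100 4-fold and 8 of 100 2-fold interactions. Alternatives were all 16 libraries, RLE, DESeq2, voom, 2 other filters, a replicate block, a 2-fold minimum, each library left out and, added after the data were seen, removal of the trend with exon length and GC content (splines with 5 degrees of freedom).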

Additional observations from a re-analysis of the deposited data

How the results depend on the processing

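The number of genes called between the genotypes changed with the libraries, the tool, the filter and the correction used. It was 1651 (752 higher, 899 lower) as reported, 6154 (2991 and 3163) with all 16 libraries, 2841 (1462 and 1379) with DESeq2, 911 (436 and 475) with at least 10 counts in every library, and 2691 (1537 higher) after removal of the trend with exon length and GC content. With a replicate block it was 3051 (1413 and 1638). Whether the replicate numbers pair these samples cannot be decided here, so a call gained or lost there is not a measure of strength. Deviations of same-numbered WT and Nrf2-/- libraries at 1 h from their group means had a correlation of -0.0172. The WT pair hardly deviated, with a biological coefficient of variation of 0.0384. Between the Nrf2-/- libraries at 1 h and the isosmotic WT libraries with SFN the correlation was 0.499. Over the other pairs of these SFN groups it ran from -0.0758 to 0.0209. The source of the 0.499 was not tested. Leaving out 1 library gave 1047 to 10678 genes, 420 to 5132 higher and 627 to 5546 lower. All 144 named genes that were called kept their direction in each alternative run, and 91 kept their call in each. With limma voom, 1358 of its 1876 calls were shared with those reported. The interaction, 0 as reported, gave 24 genes (12 and 12) with all 16 libraries, 43 (22 and 21) with DESeq2 and 56 (31 and 25) with no filter. Leaving out 1 library gave 0 to 1638, 0 to 776 higher and 0 to 862 lower.

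The median of stress-induced genes (-0.23) was -0.28 with limma voom, -0.27 with no filter, -0.13 with at least 10 counts, -0.27 with the replicate block, -0.091 after trend removal and -0.32 to -0.21 with 1 library left out. That of stress-lowered genes (0.22) was 0.35 after trend removal, 0.52 for the 4-fold list and 0.11 to 0.36 with 1 library left out. That of SFN-induced genes (-0.18) was -0.060 with at least 10 counts, -0.028 after trend removal, -0.050 for the list by adjusted p alone and -0.21 to -0.073 with 1 library left out. Among uncalled genes the direction turned after trend removal for Keap1 (0.35), Sqstm1 (0.079), Prdx1 (-0.15), Nfat5 (-0.14), Atf4 (0.22), Krt8 (0.34), Slc39a4 (0.34) and Col23a1 (0.15), and with limma voom for Rpl24 (-0.31). With 1 library left out it ran from -0.38 to 0.049 for Sqstm1, from -1.57 to 0.0090 for Txn1, from -0.21 to 0.32 for Prdx1, from -0.41 to 0.51 for Nfat5, from -0.31 to 0.12 for Atf4, from -2.92 to 0.094 for Uqcr11, from -3.25 to 0.13 for Romo1, from -2.58 to 0.25 for Ndufs6, from -2.94 to 2.32 for Rpl24, from -0.18 to 0.092 for Slc39a4, from -0.049 to 0.24 for Pde4c, from -0.33 to 0.015 for Col23a1, from -0.26 to 0.42 for Sytl3, from -3.48 to 0.66 for Pet100, from -2.69 to 0.20 for Zfas1, from -2.64 to 0.36 for Tomm7, from -2.83 to 0.10 for Cops9 and from -2.76 to 0.20 for Naa38. The cause of these changes was not tested.

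Trend removal was chosen after seeing the data. With 2 libraries per genotype, simulated 2-fold differences were mostly missed at these depths (35717514 counts or more per library). The simulation gave both genotypes the same spread, while the Nrf2-/- pair was wide. An uncalled gene is therefore not shown to be alike in the genotypes.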
